A study of Mus musculus with 2 samples.

Results

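Rab GTPases, sorting nexins and vacuolar protein sorting proteins move membrane and cargo between the compartments of a cell, and their transcripts were compared here between fetal mouse lung epithelium kept with CHIR99021 and the same kind of epithelium after the compound was withdrawn. The genes were taken by name alone. A probe set belonged when it named 1 gene and the symbol was Rab or Vps followed by a number and at most 1 letter, or Snx followed by a number, which gave 267 of the 34945 single-gene probe sets and 123 of 18193 genes (59 Rab, 30 Snx and 34 Vps). Genes were chosen by symbol and no signal entered the rule, but the family itself was selected on earlier results from these 2 arrays, so all values are a description.

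Epithelium came from ICR mouse lung at embryonic day 11. In both groups it had been grown in Matrigel, a basement membrane gel, for 4 days with FGF10, the budding signal of the lung, and with CHIR99021, which blocks GSK3 and so spares beta-catenin from degradation. It was then cut into pieces, embedded again and grown for 2 days with FGF10, in the first group with CHIR99021 and in the second without it. There was 1 Affymetrix array per group, from isolated epithelium in culture, so no spread between cultures, no error and no test can be given for any difference. RNA came from whole cultures, in which fewer cells of a type and less RNA per cell cannot be told apart.

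Rab proteins are molecular switches that sit on a membrane when bound to GTP and recruit tethers, motors and fusion factors, and each marks a particular compartment. Sorting nexins bind phosphoinositides on endosomes and bend the membrane or pick cargo. Vps proteins, named after yeast mutants, build the retromer that returns receptors from endosomes, the HOPS, CORVET and GARP tethers, and the ESCRT machinery that cuts vesicles into endosomes. In lung epithelium this traffic carries surfactant into lamellar bodies, delivers proteins to the apical surface, and, in Wnt-producing cells, returns the Wnt carrier Wls through retromer and Snx3.

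The whole-array facts that touch these genes were as follows. A floor for background, the 95th percentile of 80 probe sets for olfactory and vomeronasal receptors, lay at a signal of 12.7 with CHIR99021 and 19.2 without it. Over the 12917 genes above it on at least 1 array, the median log2 ratio of with over without CHIR99021 was -0.42, and 77.4% of them had a ratio below 0. The 3' to 5' signal ratio was 3.18 with and 1.29 without CHIR99021 for beta-actin, and 1.62 with and 0.737 without it for Gapdh. The part of this difference in the results below was not tested. Axin2, a direct beta-catenin target, had a signal of 267 with CHIR99021 and 58.2 without it. Of 9 epithelial markers 8 were above the floor with CHIR99021 and 9 without it, with summed signals of 26621 with and 42170 without the compound, and Nkx2-1, the lung lineage factor, was the one under the floor with CHIR99021, at 52.0 without it. Of 13 mesenchymal markers 5 were above the floor in each culture (summed signals of 408 with and 489 without CHIR99021), and Pdgfra, Pdgfrb, Tbx4, Twist1, Twist2, Fgf10, Lum and Postn were below it in both. Of 7 endothelial markers 2 were above it in each culture (66.3 with and 104 without CHIR99021 in sum), Pecam1, Cdh5, Tie1, Tek and Emcn being below it in both. Of 9 blood markers 3 were above it in each culture (123 with and 166 without CHIR99021 in sum), while Ptprc, Hbb-bh1, Hbb-y, Hba-x, Hba-a1 and Tyrobp were below it in both.

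Most trafficking genes were expressed, and most had a somewhat lower signal with CHIR99021. Of the 123 genes, 114 exceeded the floor on 1 array or more and 107 did so on both. The 9 below it on both were Rab9b, Rab26, Rab39, Rab39b, Rab42, Rab44, Snx31, Snx32 and Vps13c. At least 2-fold lower with CHIR99021 were 23 of the 114, where 18.4% of all measured genes were lower by that much. At least 2-fold higher were 0 of the 114, against 1.9% of all measured genes. The share of 20.2% lower is close to the background, so the count by itself says little about these genes. The median log2 ratio was -0.63, against -0.42 over all measured genes. A ratio below 0 was found for 101 genes (88.6%), against 77.4% of all measured genes. How many lay below 0 depended on the scale. Centring each array on its median added 0.62 to every log2 ratio. The medians were then -0.01 for trafficking genes and 0.20 for all measured genes. Below 0 were then 59 of the 114 (51.8%), against 36.8% of all measured genes. After quantile normalization 67 were below 0 (58.8%, against 41.6%), and after loess 76 (66.7%, against 46.8%). With hybridization controls as the scale 94 were below 0 (82.5%, against 68.3%). Values below are on the authors' scale unless another is named.

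By family, 14 of 53 measured Rab genes were at least 2-fold lower (26.4%), 7 of 28 sorting nexins (25%) and 2 of 33 Vps genes (6.06%), beside 18.4% of all measured genes. After median centring the counts were 6, 3 and 0 (5.91% of all measured genes), and after loess 6, 5 and 1 (7.29%). Their median log2 ratios on the authors' scale were -0.57 for Rab, -0.70 for Snx and -0.66 for Vps genes. After median centring these medians were 0.06, -0.07 and -0.03. The Vps genes lay between log2 ratios of -1.55 and 0.58, while Rab genes spread from -3.41 to 0.95. Differences between the families were not tested.

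**Figure D1:**
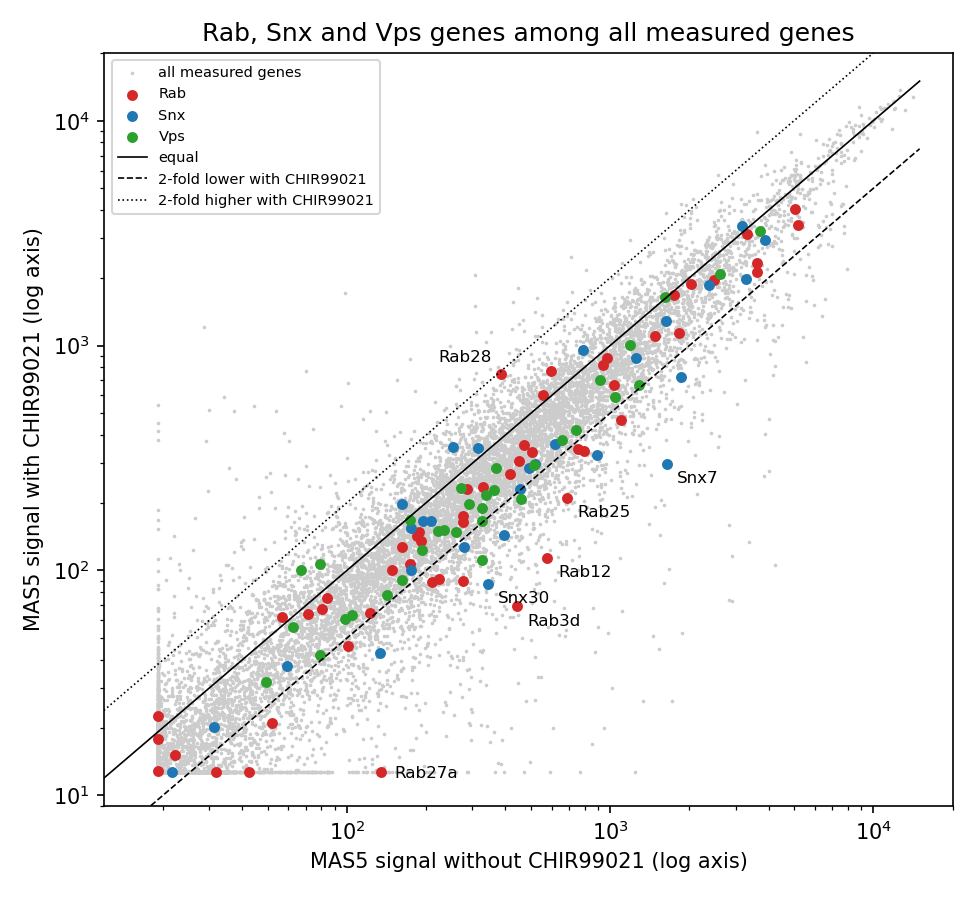
MAS5 signal with CHIR99021 (vertical) against the signal without it (horizontal), both on log axes, for 114 measured Rab, Snx and Vps genes (coloured points) and all 12917 measured genes (grey). Signals below the floor are drawn at the floor, solid, dashed and dotted lines mark equal signal, 2-fold lower and 2-fold higher, and on the authors' scale most coloured points lie between the solid and the dashed line, with Rab3d, Rab27a, Rab12, Snx7, Snx30 and Rab25 well below.

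The gap to all genes was wider at middle signals than at low ones. Among genes over the floor on both arrays and with 300 to 1000 without CHIR99021, 35 trafficking genes had a median log2 ratio of -0.77 and 3439 genes in all one of -0.43. At 1000 and more, 26 trafficking genes had a median of -0.41 and 2040 genes in all one of -0.29. At 100 to 300 the medians were -0.64 for 32 trafficking genes and -0.44 for 3054 genes. Below 100 they were -0.41 for 14 and -0.40 for 2823.

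The 2 lowest ratios belonged to Rabs of regulated secretion, which bring granules to the plasma membrane and hold them there until a signal for release. Rab3d, a Rab of secretory granules in exocrine cells, had a signal of 69.8 with CHIR99021 and 442 without it, 6.33-fold lower with the compound. Its further probe sets gave 56.7 with and 370 without CHIR99021, and 21.1 with and 163 without it. These 3 probe sets, above the floor in both cultures, gave like ratios, while the dimmest of its 4 was under the floor with CHIR99021, at 8.54, and had 25.3 without it.

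Rab27a, which docks secretory granules and lysosome-related organelles and is lost in ashen mice, did not reach the floor with CHIR99021 and had a signal of 135 without it, at least 10.6-fold lower. Another of its 4 probe sets had 4.38 with CHIR99021, below the floor, and 30.7 without it. A dim one went the other way, at 20.8 with CHIR99021 and under the floor without it. By the median over its probe sets above the floor on at least 1 array, the log2 ratio of Rab27a was -1.27. Its close relative Rab27b had 106 with and 174 without CHIR99021, a log2 ratio of -0.71, and dimmer probe sets at -1.01 and -1.69.

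The other Rab3 genes, best known from synaptic vesicles and endocrine granules, were dimmer than Rab3d without CHIR99021 or differed less. Rab3b had 89.6 with and 277 without CHIR99021, 3.10-fold lower, by its only probe set. Rab3c had 21.1 with and 51.9 without CHIR99021, 2.46-fold lower, close to the floor on the array with the compound. Rab3a had 231 with and 285 without CHIR99021, a log2 ratio of -0.30. Its dim other probe set went the other way, at 29.1 with and 21.0 without CHIR99021, a log2 ratio of 0.47. Of the 7 measured genes of this group 4 were at least 2-fold lower, beside 18.4% of all measured genes, and the median log2 ratio was -1.30. After median centring, quantile normalization or loess 3 of the 7 were lower, beside 5.91%, 6.43% and 7.29% of all measured genes. Of the 7, Rab37, of mast cell granules, was just above the floor with CHIR99021 at 12.8 and under it without the compound. Its ratio reflects only the unequal floors of the arrays.

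The 250 bases before the annotated start of Rab3d are shown because this gene had the lowest ratio of those above the floor on both arrays. They are set beside the same stretch of Rab13 and Vps37d, which differed in opposite directions and share the core of the TCF/LEF site bound by the partners of beta-catenin, and of Vps16 and Vps33a, subunits of the same tether that share the core of the CLEAR motif, bound by the lysosomal regulator TFEB. Sequences are RefSeq's on GRCm38.p6, 5′ to 3′ on the strand of the gene. Capitals mark CTTTGA (TCF/LEF core), GTCACGTG (CLEAR core) and GGGCGG (GC box), each searched on both strands, so that the GC box can read CCGCCC, and CLEAR cores that overlap on the 2 strands are capitalised as 1 run. Rab13 has 2 annotated starts, and the one whose window holds CTTTGA is shown.
Rab3d (chr9:21918184-21918433, minus strand): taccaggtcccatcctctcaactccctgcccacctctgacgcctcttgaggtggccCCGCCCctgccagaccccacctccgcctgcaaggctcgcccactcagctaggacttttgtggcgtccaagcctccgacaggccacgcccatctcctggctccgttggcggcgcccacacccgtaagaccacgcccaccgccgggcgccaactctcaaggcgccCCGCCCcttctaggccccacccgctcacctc
Rab13 (chr3:90220534-90220783, plus strand): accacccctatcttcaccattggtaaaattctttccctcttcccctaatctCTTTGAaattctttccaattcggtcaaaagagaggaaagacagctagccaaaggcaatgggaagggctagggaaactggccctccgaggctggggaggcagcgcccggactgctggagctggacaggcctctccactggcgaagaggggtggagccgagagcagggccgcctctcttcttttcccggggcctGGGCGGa
Vps37d (chr5:135078267-135078516, minus strand): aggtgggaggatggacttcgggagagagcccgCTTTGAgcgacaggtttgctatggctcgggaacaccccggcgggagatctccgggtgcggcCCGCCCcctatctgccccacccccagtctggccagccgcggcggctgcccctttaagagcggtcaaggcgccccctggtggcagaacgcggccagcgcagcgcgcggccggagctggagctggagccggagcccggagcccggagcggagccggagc
Vps16 (chr2:130424070-130424319, plus strand): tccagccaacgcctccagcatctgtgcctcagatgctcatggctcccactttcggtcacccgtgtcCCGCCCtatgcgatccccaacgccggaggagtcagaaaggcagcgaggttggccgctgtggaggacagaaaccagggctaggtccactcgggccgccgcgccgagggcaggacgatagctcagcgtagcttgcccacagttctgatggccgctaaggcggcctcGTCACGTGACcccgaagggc
Vps33a (chr5:123573016-123573265, minus strand): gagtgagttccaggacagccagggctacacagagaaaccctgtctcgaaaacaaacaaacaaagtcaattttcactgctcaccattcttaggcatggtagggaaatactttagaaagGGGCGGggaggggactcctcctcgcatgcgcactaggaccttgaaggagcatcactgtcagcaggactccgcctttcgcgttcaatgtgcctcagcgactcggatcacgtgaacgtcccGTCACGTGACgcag

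Windows of 300 bases, 250 before and 50 after the start, were found for 91 of the 123 genes (113 windows). CTTTGA was in 13 of them (11.5%), in 1603 of the 13383 windows of all measured genes and in 5257 of all 32851 windows, so these letters were about as common near trafficking genes as near measured genes in general. The 12 genes that held it had log2 ratios from -1.30 to 0.58. At least 2-fold lower were 3 of them (Rab13, Rab15 and Rab3c), beside 18.4% of all measured genes. After median centring these 3 were within 2-fold, at log2 ratios of -0.66, -0.61 and -0.68, while Vps37d was past 2-fold higher, at 1.21. GTCACGTG was in 7.08% of the trafficking windows, 3.92% of those of measured genes and 2.25% of all. The 7 genes with it were Vps16, Vps33a, Vps50, Vps26a, Rab5a, Rab21 and Rab24, with log2 ratios between -0.98 and -0.19. GGGCGG was in 67.3%, 60.4% and 35.7% in the same order. A match describes these letters in this window and shows no bound factor.

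Rabs of recycling endosomes and polarised transport came next. They carry proteins to the apical or basolateral face of an epithelial cell. Of the 11 genes, all measured, 5 were at least 2-fold lower with CHIR99021 on the authors' scale, where 18.4% of all measured genes were, and the median log2 ratio was -0.76. After median centring, quantile normalization or loess 1 of the 11, Rab25, was lower by that much, beside 5.91%, 6.43% and 7.29% of all measured genes.

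Rab25, an epithelial Rab of the Rab11 subfamily found on apical recycling endosomes, had a signal of 210 with CHIR99021 and 684 without it, 3.26-fold lower. Rab13, which acts at tight junctions, had 92.1 with and 225 without CHIR99021, 2.44-fold lower. Rab17, a Rab of polarised epithelial cells, had 88.7 with and 210.5 without CHIR99021, 2.37-fold lower. Rab25 was at least 2-fold lower under all 5 scalings, whereas Rab13 and Rab17 had log2 ratios of -0.66 and -0.62 after median centring and -0.75 and -0.71 after loess, within 2-fold, and Rab25 and Rab13 rest on 1 probe set each. Rab15, an endocytic recycling Rab, had 339 with and 795 without CHIR99021, 2.34-fold lower, by its only probe set. Rab8a, which carries vesicles to the plasma membrane and the cilium, had 348 with and 753 without CHIR99021, 2.16-fold lower, and 13.8 with and 40.7 without CHIR99021 by a dim further probe set.

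Relatives of these genes that nearly all cells express lay within 2-fold by their brightest probe sets. Rab11a, the general Rab of recycling endosomes, had 2331 with and 3615 without CHIR99021, a log2 ratio of -0.63, and another probe set read 1424 with and 1679 without CHIR99021. Rab11b had 164 with and 277 without CHIR99021. Rab25 thus had the lowest ratio of the Rab11 subfamily, at a log2 ratio of -1.70 against -0.63 and -0.76 for Rab11a and Rab11b. Rab8b, the relative of Rab8a, had 603 with and 557 without CHIR99021, a log2 ratio of 0.12 beside -1.11 for Rab8a. Rab10, a Rab of basolateral delivery, had 1870 with and 2031 without CHIR99021, but 379 with and 950 without it by another of its 3 probe sets, a log2 ratio of -1.33. Rab14, which acts between Golgi and endosomes, had 3454 with and 5169 without CHIR99021 by the brightest of its 7 probe sets, whose log2 ratios ran from -1.64 to 0.66. Rab35, of fast recycling, had 269 with and 415 without CHIR99021.

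Among Rabs of late endosomes and lysosome-related organelles, 2 of 8 measured genes were at least 2-fold lower with CHIR99021, and 1 of 8, Rab12, after median centring. Over all measured genes the shares were 18.4% and 5.91%. Rab38, required for lamellar bodies in alveolar type 2 cells and for melanosomes, had a signal of 467 with CHIR99021 and 1103 without it, 2.36-fold lower. Its other probe set gave 420 with and 1038 without CHIR99021, so both put it at nearly the same ratio. Rab32, which shares work with Rab38 in pigment cells, had 64.6 with and 122 without CHIR99021, a log2 ratio of -0.92. Rab12, which directs transferrin receptor to degradation, had 113 with and 578 without CHIR99021, 5.10-fold lower, but 33.0 with and 55.3 without CHIR99021 by a dimmer probe set, a log2 ratio of -0.75.

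The Rabs that define late endosomes in every cell were among the brightest genes of the family. Rab7, the Rab of late endosomes and lysosomes, had a signal of 1098 with and 1477 without CHIR99021, while a second probe set read 221 with and 687 without CHIR99021, so its log2 ratio was -0.43 or -1.64 depending on the probe set. Rab9, which returns receptors from late endosomes to the Golgi, had 3151 with and 3323 without CHIR99021. Rab24, linked to autophagy, had 666 with and 1032 without CHIR99021. Their brightest probe sets all lay within 2-fold.

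Early endosomal Rabs differed little on the authors' scale. After median centring 8 of the 9 had a ratio above 0, where 36.8% of all measured genes were below 0. Of 9 genes, all above the floor on both arrays, 1 was at least 2-fold lower, beside 18.4% of all measured genes. The median log2 ratio of -0.34 was less far from 0 than the -0.42 of all measured genes. Rab5a, the Rab of early endosome fusion, had a signal of 1964 with CHIR99021 and 2485 without it. Rab5c had 882 with and 971 without CHIR99021, and Rab5b 75.3 with and 83.8 without CHIR99021. All 3 Rab5 genes lay between log2 ratios of -0.34 and -0.14, although a dimmer probe set of Rab5b had 22.6 with and 53.8 without CHIR99021. Rab21, which acts in integrin endocytosis, had 824 with and 937 without CHIR99021. The lower gene was Rab20, at 46.1 with and 101 without CHIR99021, 2.18-fold, by its only probe set.

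Rabs of the endoplasmic reticulum and Golgi, the first steps of secretion, had a median log2 ratio of -0.36. At least 2-fold lower was 1 of 14 measured genes, beside 18.4% of all measured genes. Rab1a, needed for transport from endoplasmic reticulum to Golgi, was the brightest, at a signal of 4037 with CHIR99021 and 5058 without it. Rab1a and Rab2a each had dim probe sets past 2-fold, Rab1a at 20.3 with and 46.9 without the compound. Rab2a, which works between Golgi and endoplasmic reticulum, had 2132 with and 3615 without CHIR99021 by its brightest, and Rab6a, of Golgi traffic, 1672 with and 1742 without CHIR99021. Rab6b, a relative of Rab6a that is abundant in brain, fell short of the floor with CHIR99021 and had 42.7 without it, at least 3.35-fold lower. On the authors' scale the abundant Rab6a was thus nearly equal while the dim Rab6b was under the floor on 1 array. After median centring Rab6a had a log2 ratio of 0.56.

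Rab18, of lipid droplets and endoplasmic reticulum, had the largest disagreement among genes whose probe sets cleared the floor in both cultures. The brighter read 1136 with CHIR99021 and 1831 without it, a log2 ratio of -0.69, and the other 46.8 with and 789 without CHIR99021, a log2 ratio of -4.08. Both lie in the same direction, but the size of the difference cannot be read from them.

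Higher signals with CHIR99021 were few among the Rabs. Rab28, which is needed in photoreceptor cilia, had the highest ratio of the whole set, at a signal of 747 with CHIR99021 and 386 without it, a log2 ratio of 0.95, just under 2-fold. On the other scalings it was past 2-fold, at 1.57 after median centring, 1.42 after quantile normalization, 1.35 after loess and 1.10 on the hybridization controls. Its other probe set had 109 with and 174 without CHIR99021, a log2 ratio of -0.67, so its direction depends on the probe set. Rab34, needed for ciliogenesis, had 768 with and 598 without CHIR99021, and a second probe set read 685 with and 547 without CHIR99021. Rab23, a brake on Hedgehog signalling in mouse embryos, had 127 with and 162 without CHIR99021, and 104 with and 86.7 without CHIR99021 by another probe set. Rab36 had 62.1 with and 56.6 without CHIR99021. Rab40b, a Rab with a SOCS box, was under the floor with CHIR99021 and had 31.7 without it, at least 2.49-fold lower, while Rab40c had 338 with and 503 without CHIR99021.

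**Figure D2:**
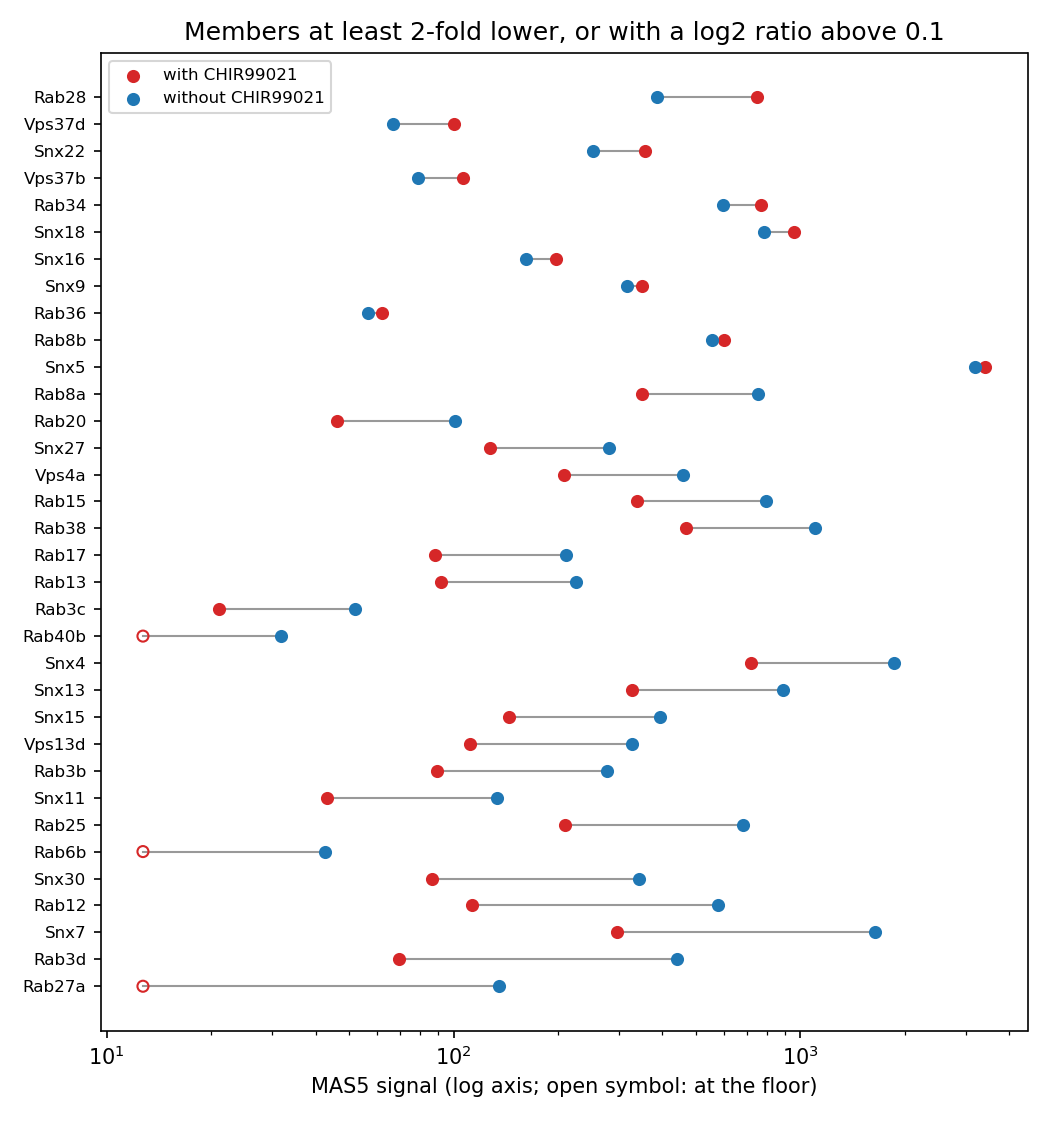
MAS5 signal on a log axis with CHIR99021 (red) and without it (blue) for the 23 genes at least 2-fold lower and the 11 genes above the floor on both arrays with a log2 ratio above 0.1, ordered by ratio; 1 array per culture, open symbols at the floor. The shifts to higher signal at the top, up to Rab28, are all short of 2-fold on the authors' scale, and the longest lines belong to Rab27a, Rab3d, Snx7 and Rab12.

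Among the sorting nexins Snx7 had the lowest ratio. Snx7, Snx30 and Snx4 were all at least 2-fold lower with CHIR99021, although Snx4 was within 2-fold after median centring. In human cells Snx4 pairs with Snx7 or with Snx30, and these pairs serve recycling and autophagy. Snx7 had a signal of 296 with CHIR99021 and 1643 without it, 5.55-fold lower, by its only probe set. Snx30 had 86.8 with and 343 without CHIR99021, 3.95-fold lower, and 61.3 with and 212 without CHIR99021 by its other probe set. Snx4 had 722 with and 1855 without CHIR99021, 2.57-fold lower, and a further probe set near the floor had 21.0 with and 20.8 without the compound. These 3 genes were put together after their values were seen.

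The other sorting nexins with a membrane-bending BAR domain lay within 2-fold on both sides of 0. Snx18, which with Snx9 bends membrane during endocytosis, had 961 with CHIR99021 and 786 without it, but 113 with and 228 without CHIR99021 by a dimmer probe set. Snx9 had 349 with and 316 without CHIR99021, again with a dimmer probe set at 69.4 with and 175 without CHIR99021. Snx33, of the same subfamily, had 100 with and 176 without CHIR99021, a log2 ratio of -0.81.

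Sorting nexins that work with retromer had a median log2 ratio of -0.73. At least 2-fold lower was 1 of 7 measured genes, beside 18.4% of all measured genes. Snx27, which links cargo with PDZ-binding tails to retromer, had a signal of 128 with CHIR99021 and 280 without it, 2.19-fold lower, and 57.1 with and 111 without CHIR99021 by its other probe set, a log2 ratio of -0.95. Snx1 and Snx2, which tubulate the endosome, had log2 ratios of -0.80 and -0.73, Snx2 at 1976 with and 3277 without CHIR99021. Snx3, the retromer partner for Wls, had 1866 with and 2374 without CHIR99021. Snx6 had 877 with and 1256 without CHIR99021, and 428 with and 964 without it by another probe set, a log2 ratio of -1.17.

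Snx5, the partner of Snx1 and Snx2 in the same coat, was read by 5 probe sets. Its brightest probe set had a signal of 3412 with CHIR99021 and 3180 without it, a log2 ratio of 0.10. The next had 2418 with and 1498 without CHIR99021, and the others 1939 with and 1486 without it, 765 with and 576 without it, and 42.2 with and 29.0 without it. All 5 were higher with CHIR99021, none by 2-fold, while Snx1, Snx2 and Snx6 were lower by their brightest probe sets.

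Of the remaining 14 measured sorting nexins 3 were at least 2-fold lower, 1 after median centring and 0 after quantile normalization. Over all measured genes the shares were 18.4%, 5.91% and 6.43%. Snx13, of the subfamily with an RGS domain, had a signal of 327 with CHIR99021 and 891 without it, 2.73-fold lower, and 351 with and 759 without CHIR99021 by its second probe set. Snx15 had 144 with and 394 without CHIR99021, 2.74-fold lower, and Snx11 43.1 with and 134 without CHIR99021, 3.10-fold lower, each by 1 probe set. Snx17, which recycles integrins, had 2935 with and 3876 without CHIR99021. On the higher side were Snx22, at 356 with and 253 without CHIR99021, and Snx16, at 197 with and 162 without CHIR99021, whose 3 probe sets all had a ratio above 0.

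**Figure D3:**
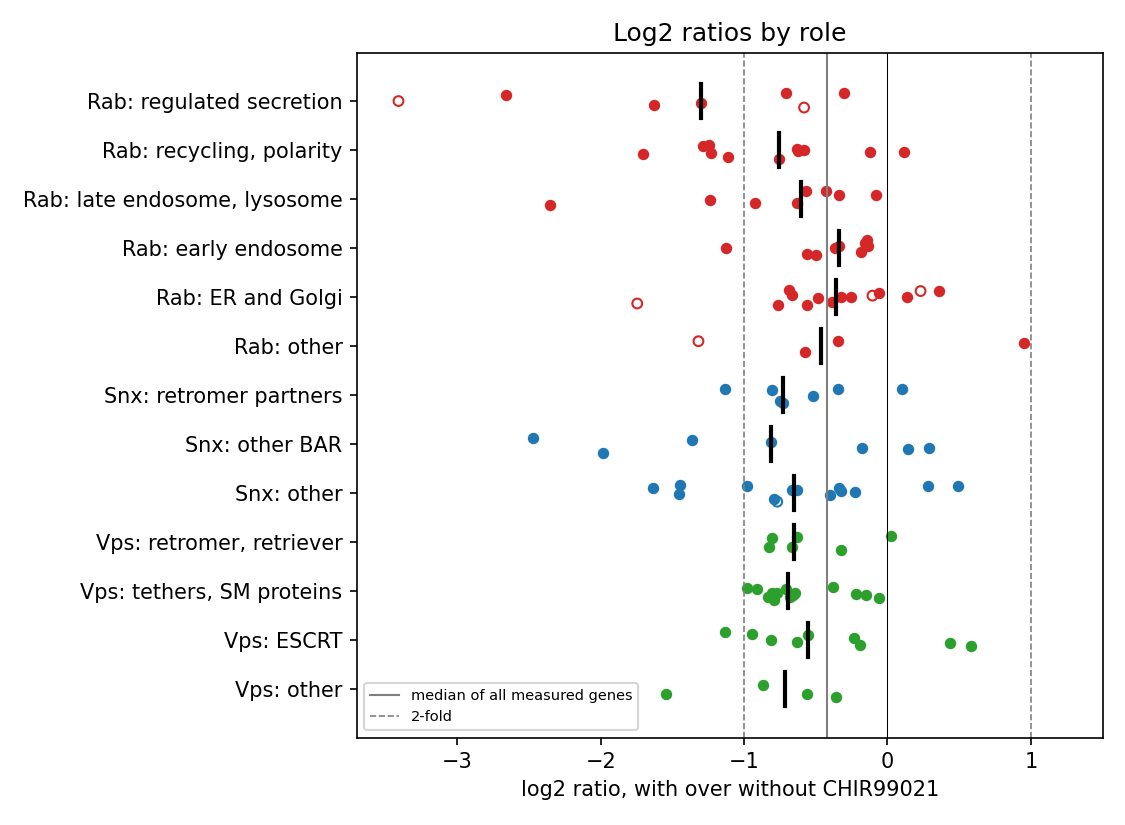
Log2 ratio of with over without CHIR99021 for each measured gene by role (points; red Rab, blue Snx, green Vps; open where above the floor on 1 array only), with the median of each role as a black bar, the median of all measured genes (-0.42) as a grey line and 2-fold as dashed lines. The secretory Rabs have the lowest median, at -1.30, and the Vps genes of tethers all lie between -0.98 and -0.06.

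The core of retromer and its sister complex retriever differed by less than 2-fold in every subunit by the brightest probe sets, while dim further ones of Vps26b and Vps35l were past it, at log2 ratios of -1.63 for Vps26b and of -1.14 and -1.02 for Vps35l. Vps35, the scaffold of retromer, had a signal of 2087 with CHIR99021 and 2614 without it, with a dim second probe set that missed the floor with CHIR99021 and had 52.4 without it. Vps29, shared by both complexes, had 1639 with and 1611 without CHIR99021, a log2 ratio of 0.02. Vps26a had 590 with and 1046 without CHIR99021, and Vps26b 148 with and 259 without it, log2 ratios of -0.82 and -0.81. On the authors' scale Vps29 and Vps35 were thus nearer to equal than Vps26a and Vps26b. After median centring the order was the reverse. Log2 ratios were then 0.65 for Vps29, 0.30 for Vps35, -0.20 for Vps26a and -0.18 for Vps26b. Vps26c and Vps35l, which with Vps29 form retriever, had log2 ratios of -0.67 and -0.63. Wls, the Wnt carrier and a retromer cargo, had 2860 with and 4257 without CHIR99021, a log2 ratio of -0.57.

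Subunits of the tethers, which hold a vesicle to its target before fusion, had small differences by their brightest probe sets. All 14 genes of this kind were above the floor on both arrays. On the authors' scale 14 had a ratio below 0, and after median centring 10 of 14. Over all measured genes these shares were 77.4% and 36.8%. At least 2-fold lower were 0 of the 14, where 18.4% of all measured genes were. The 6 HOPS genes had log2 ratios from -0.98 to -0.15. Vps33a, the SNARE-binding subunit, had a signal of 166 with CHIR99021 and 327 without it, the lowest ratio of the 6, and its other probe set was below the floor with CHIR99021 and at 118 without it. Vps41, which links HOPS to late endosomes, had 379 with and 658 without CHIR99021, and its dimmer probe sets were past 2-fold, at log2 ratios of -1.20 and -1.79. Vps18 and Vps16, of the core, were nearest to equal on the authors' scale. Vps18 had 56.2 with and 62.4 without CHIR99021, and Vps16 232 with and 270 without it. After median centring they were the farthest from 0 of the 6, at log2 ratios of 0.47 and 0.40. The 4 GARP genes, which tether vesicles at the Golgi, ran from -0.91 for Vps52 to -0.06 for Vps51, and Vps54 had 707 with and 918 without CHIR99021. Vps51 differed between probe sets, its further probe sets at -1.55 and -1.14, and Vps50 had a dim one at -1.26.

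ESCRT genes named Vps split by subunit. Vps4a, an ATPase that takes ESCRT filaments apart, had a signal of 208 with CHIR99021 and 458 without it, 2.20-fold lower, by its only probe set. Its more abundant relative Vps4b had 3245 with and 3713 without CHIR99021, a log2 ratio of -0.19. Vps28, of ESCRT-I, had 671 with and 1292 without CHIR99021, a log2 ratio of -0.95. Its alternative partners Vps37a to Vps37d lay on both sides of 0: Vps37d at 100 with and 66.8 without CHIR99021 (log2 ratio of 0.58), Vps37b at 107 with and 78.8 without CHIR99021 (0.44), Vps37a at 199 with and 292 without CHIR99021 (-0.55) and Vps37c at 421 with and 741 without CHIR99021 (-0.81). A dimmer probe set of Vps37a had 83.7 with and 305 without CHIR99021, a log2 ratio of -1.86. The other probe set of Vps37c was level, at 137 with and 138 without CHIR99021. Vps36, of ESCRT-II, had 1010 with and 1187 without CHIR99021, with its dimmest probe set at 35.4 with and 157 without CHIR99021.

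Vps13d, a lipid transfer protein, had 112 with CHIR99021 and 326 without it, 2.92-fold lower, and 25.3 with and 41.3 without CHIR99021 by a further probe set. Vps13a and Vps13b had log2 ratios of -0.56 and -0.36. Vps72 carries the name but works in chromatin, as a subunit of a histone exchange complex. It had 77.7 with and 142 without CHIR99021.

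Some close relatives differed from each other. The widest gap of log2 ratios between measured relatives was 2.71, between Rab27a and Rab27b, followed by 2.36 between Rab3a and Rab3d and 1.69 between Rab6a and Rab6b. Rab8a and Rab8b differed by 1.23, and Vps4a and Vps4b by 0.94. In each of these 5 pairs the lower member was at least 2-fold lower and the other within 2-fold by the brightest probe set. The 5 were picked from more pairs, which did not all share this. Vps37c and Vps37d (1.40) and Vps37b and Vps37c (1.25) were each within 2-fold, and Rab3c and Rab3d (1.36) were both at least 2-fold lower. Rab3a and Rab3b (1.33) and Vps13b and Vps13d (1.19) did share it. Spread between probe sets of a single gene was 0.57 (SD of log2 ratios). It was pooled over the 59 trafficking genes for which several probe sets cleared the floor in both cultures. A gap is a difference between 2 probe sets, which varies more than 1 probe set does. Gaps of 1 or more also occurred between probe sets of a single gene, in 19 of the 59.

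Which probe set stands for a gene mattered for many of them. Of the 59 genes, 19 (32.2%) had probe sets whose log2 ratios differed by 1 or more, against 27.3% of 5335 genes on the whole array. In 11 of the 59 the probe sets lay on both sides of 0, against 1447 of the 5335. Of the 23 genes called lower, 10 had another probe set that cleared the floor in both cultures. For 6 of these, Rab3c, Rab3d, Rab8a, Rab38, Snx13 and Snx30, all such probe sets were at least 2-fold lower too. For Rab12, Snx27 and Vps13d the further probe set was lower by less than 2-fold, and for Snx4 it was level. In the other direction, 23 of the 91 genes within 2-fold had a dimmer probe set that was at least 2-fold lower. The same share over all genes is not given here.

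**Figure D4:**
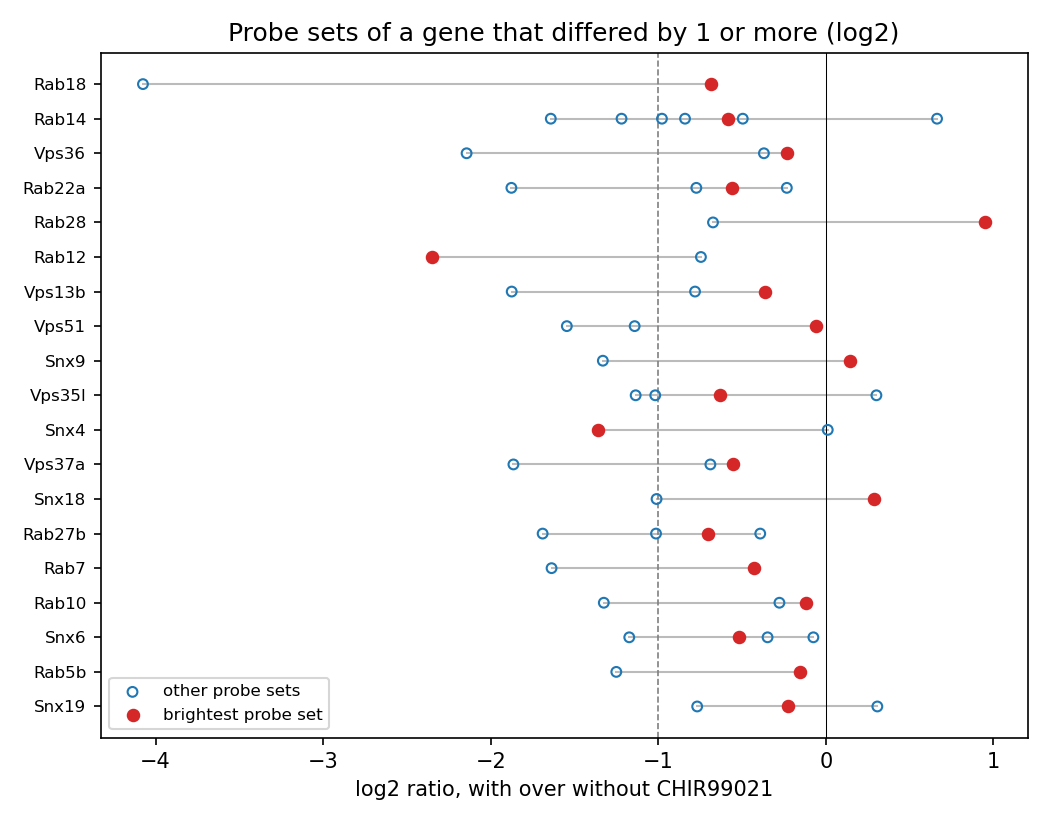
Log2 ratio of with over without CHIR99021 for each probe set that cleared the floor in both cultures (red, the brightest of the gene; open blue, the others) of the 19 trafficking genes whose probe sets differed by 1 or more. For Rab18, Vps36, Rab22a and Rab7 the dimmer probe sets reach far lower than the brightest one, and for Rab12 and Snx4 the brightest is the lowest.

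Some genes lay near the 2-fold line. Just short of it were 5 genes with log2 ratios between -1 and -0.9 (Vps33a, Snx25, Vps28, Rab32 and Vps52), and 4 of the called genes lay within 0.15 of it (Rab8a, Rab20, Snx27 and Vps4a). These 4 were within 2-fold on each of the other 4 scalings. Scaling moved the split of calls: after a loess correction for signal 12 trafficking genes were lower and 2 higher (7.29% and 6.03% of all measured genes), while median centring gave 9 lower and 4 higher (5.91% and 8.59%). The 4 higher after median centring were Rab28, Vps37d, Snx22 and Vps37b, the 2 after loess Rab28 and Vps37d. Lower by 2-fold under all 5 scalings were 8 genes: Rab27a, Rab3d, Snx7, Rab12, Snx30, Rab6b, Rab25 and Rab3b. On single scalings the share of all measured genes lower by 2-fold ran from 5.91% to 18.4%. Their share under all 5 at once is not given here, so the count of 8 has no background beside it.

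Partners of Rabs, not only of the secretory and recycling ones, were looked up from a list of effectors, the proteins that a Rab recruits. Of 26 measured effectors 11 were at least 2-fold lower (42.3%) and 2 higher, with a median log2 ratio of -0.70, beside 18.4% lower and 1.9% higher over all measured genes. After median centring 7 were lower and 4 higher, beside 5.91% and 8.59%. Sytl2, which joins Rab27a to the plasma membrane, had a signal of 16.3 with CHIR99021 and 153 without it, 9.35-fold lower. Mlph, which joins Rab27a to a myosin motor, was under the floor with CHIR99021 and had 84.1 without it, at least 6.61-fold lower. Unc13d, which primes Rab27a-bearing granules, had 28.6 with and 148 without CHIR99021, 5.19-fold lower. On the higher side, Myrip, another Rab27a effector, had 40.9 with CHIR99021 and did not reach the floor without it, at least 2.14-fold higher, and Mical1, an actin-oxidising enzyme bound by Rabs, had 757 with and 309 without CHIR99021, 2.45-fold higher.

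Regulators of Rabs and the exocyst, the tether at the plasma membrane, were mostly lower by small amounts on the authors' scale. After median centring 17 of 32 regulators and 7 of 9 exocyst genes had a ratio below 0, beside 36.8% of all measured genes. Of 32 regulators 8 were at least 2-fold lower and 0 higher, beside the same 18.4% and 1.9%, with a median log2 ratio of -0.71. After median centring 3 were lower and 1 higher, beside 5.91% and 8.59%. Rin2, an exchange factor for Rab5, had a signal of 67.5 with CHIR99021 and 403 without it, 5.96-fold lower. Rab3gap2, of the complex that turns Rab3 off, had 47.1 with and 201 without CHIR99021, 4.26-fold lower, and Tbc1d4, a Rab10 regulator, 18.4 with and 78.1 without CHIR99021, 4.25-fold lower. Of the 9 exocyst genes 3 were at least 2-fold lower, Exoc8 the most, at 120 with and 315 without CHIR99021, and 9 had a ratio below 0, while 0 were at least 2-fold lower after median centring.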

How the data were processed

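RNA of 2 cultures was measured on 2 Affymetrix arrays, 1 per culture, from 100 ng of total RNA labelled with a 3' in vitro transcription kit, per the labels' protocols. The deposited values are intensity values per probe set on a linear scale, made by the authors with MAS5, per the submitters' processing notes. A version, a scaling target and detection calls are not given in the sources used here. Values ran from 0.0232 to 13693 with CHIR99021 and from 0.0201 to 14129 without it, and their medians were 20.4 and 33.1. MAS5 subtracts mismatch signal, so dim values scatter widely, and 1 array per culture limits the precision.

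Probe sets were named from the platform's annotation, and all 123 symbols were found unchanged in a RefSeq gene table of GRCm38.p6. The 932 probe sets naming several genes, 2 of them with Vps25, were left out. Each gene was read by its brightest probe set (mean of log2 over both arrays). Signals under the floor were set to it, so where this touched 1 array the ratio is only a bound, written "at least", and a gene below it on both arrays is not measured. A ratio was called at 2-fold. Every gene of the name rule may be named. Values are given for the genes of each role at least 2-fold different or among its 2 brightest, for the 12 highest and 12 lowest ratios, for genes above the floor on 1 array only with at least 2 times its signal, and for a fixed list of core subunits and Rabs. Values of further members were added after values were seen. Of other genes, up to 3 per list with the largest change, Axin2 and Wls are given. Members, role lists and the named-gene rule were chosen with earlier results of these data known, and complexes and paralog pairs were put together after values were seen. Python 3.11.15 with numpy 2.4.6, pandas 2.3.3 and statsmodels 0.14.6 was used, figures were drawn with matplotlib 3.10.9, and the procedure was tested on simulated data.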

Additional observations from a re-analysis of the deposited data

How the results depend on the processing

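Each of the 23 genes called lower stayed below 0 under every alternative that gave it a value. That sign was in part fixed by how they were picked, at 2-fold or more. Median centring adds only 0.62 to a log2 ratio, so it could not bring any of them above 0. Under all these alternatives 7 of them (Rab3b, Rab3d, Rab12, Rab25, Rab27a, Snx7 and Snx30) stayed at least 2-fold lower. The share of all measured genes that did so is not given here. Counts did depend on the setting. The number of trafficking genes at least 2-fold lower, 23 on the authors' scale, was 9 after median centring, 9 with quantiles matched and 12 with loess, and 59 and 9 with thresholds of 1.5-fold and 3-fold, where 38.7% and 6.29% of all measured genes were lower. The number higher, 0 on the authors' scale, was 4 after median centring, 4 after quantile normalization, 2 after loess, 1 when scaled on 18 hybridization control probe sets, 2 without a floor and 1 at 1.5-fold. The median log2 ratio was -0.63 on the authors' scale, -0.0058 after median centring, -0.0857 after quantile normalization, -0.15 after loess and -0.48 on the hybridization controls, and over all measured genes -0.42, 0.20, 0.12, 0.04 and -0.27 in the same order. For the differences between scalings the cause was not tested. Doubling the floor, requiring both arrays above it, adding 16 to each signal, taking the median of a gene's probe sets and leaving out probe sets ending in _x_at or _s_at gave 20 to 31 lower and 0 higher. No paired analysis was possible because each condition has 1 array, and no replicate could be left out.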

Other observations

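Trafficking machinery outside the name rule was taken from 7 lists, which include the effectors, regulators and exocyst genes above. On the authors' scale 136 of the 160 measured genes of all 7 lists (85%) had a ratio below 0, against 77.4% of all measured genes. After median centring 78 of 160 (48.8%) did, against 36.8%. The lists not covered above follow. Of 21 ESCRT genes with other names 7 were at least 2-fold lower with CHIR99021 and 0 higher. Chmp1a, a filament-forming subunit, had a signal of 105 with CHIR99021 and 420 without it, 3.99-fold lower, Chmp3 had 101 with and 253 without it, 2.51-fold lower, and Vta1, the activator of Vps4, had 447 with and 1056 without it, 2.37-fold lower. Of 29 measured SNARE genes, the proteins that fuse membranes, 6 were at least 2-fold lower and 0 higher. Among them were Vamp5 at 29.9 with and 122 without CHIR99021, 4.07-fold lower, Stx7, a syntaxin of late endosomes, at 340 with and 1186 without it, 3.49-fold lower, and Stx17, a syntaxin of autophagosomes, at 140 with and 463 without it, 3.30-fold lower. Of 29 coat adaptor and clathrin genes 5 were lower and 0 higher, with Cltb, a clathrin light chain, at 102 with and 265 without CHIR99021, 2.60-fold lower. In a list of 14 retromer-linked and phosphoinositide kinase genes 2 were lower, Pik3c3, the kinase that makes the lipid bound by sorting nexins, at 143 with and 458 without CHIR99021, 3.21-fold lower, and Atg14, its partner in autophagy, at 85.8 with and 192 without it, 2.24-fold lower. Over all 7 lists 42 of 160 measured genes (26.2%) were lower and 2 higher, against 18.4% and 1.9% of all measured genes. After median centring 15 of the 160 (9.38%) were lower and 8 higher, against 5.91% and 8.59%. In the lists of this paragraph 1 ESCRT, 3 SNARE, 0 coat adaptor or clathrin and 1 retromer-linked or kinase gene were then lower. Higher were then 0, 1, 2 and 0 in the same order.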
